A study of Mus musculus with 12 samples.

Results

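The 10 genes described here encode a glucose transporter and enzymes of glycolysis: Slc2a1, Hk2, Pfkp, Pfkl, Pfkfb3, Gapdh, Pgk1, Eno1, Pkm and Ldha. They were chosen by name, and all 10 were found among the 14264 genes of each table. The cells were mouse bone marrow-derived macrophages, phagocytes grown from marrow cultures. They carried either a control short hairpin (shCTRL, labelled WT) or a hairpin that depletes MOF (shMOF), a lysine acetyltransferase encoded by Kat8. Each kind of cell was left unstimulated or given the bacterial product lipopolysaccharide (LPS) at 100 ng/ml for 3 h, which makes 4 groups of 3 libraries. The labels name no strain, sex or age, no further hairpin against MOF and no rescue, so effects of this hairpin other than loss of MOF cannot be told apart from it. Nothing in them states that a group's libraries stem from different animals or cultures, and p-values may then reflect technical spread only.

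Glycolysis splits glucose into pyruvate and yields ATP without oxygen. Macrophages that meet LPS are known to take up more glucose and to make more lactate, in part through the transcription factor HIF-1, which binds hypoxia response elements near many glycolytic genes. The committed step is run by phosphofructokinase, a tetramer of L, M and P subunits, and PFKFB enzymes set the level of its strongest activator, a fructose bisphosphate that is no intermediate of the pathway.

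Each table gives, per gene, the log2 fold change of shMOF over shCTRL within an LPS state and its standard error (SE). It also gives an adjusted p-value, called here under 0.05. At LPS 3 h 277 of the 14264 genes had no adjusted p-value, so shares of all genes called in that state are over 13987 genes. The values of single libraries and the effect of LPS itself were not analysed here, so no spread between libraries is shown other than the SE. Kat8 had a log2 fold change of -2.25 (SE 0.10) unstimulated and -2.31 (SE 0.13) at LPS 3 h by the authors' deposited table. The mean normalized count, a read count corrected for library size and averaged by the authors over libraries that the sources used here do not name, was at least 1622 for each of the 10 genes by the authors' deposited table. All 10 passed the minimum mean of 10 used for the difference between states.

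In unstimulated cells Pfkl rose while Pgk1 and Ldha fell, 3 of 10 genes called. Over all genes 39.1% were called, 21.3% higher and 17.8% lower, and 55.5% of those whose mean normalized count reached 1000. After LPS, Pfkp and Pfkfb3 rose while Pgk1, Eno1 and Ldha fell, 5 of 10, against 48.0% of all genes (28.1% higher and 20.0% lower) and 66.3% of those with a mean of at least 1000. In bulk RNA, fewer cells of a type and less RNA per cell cannot be told apart. The share of called members was thus close to or below the background in both states. Their median log2 fold change was 0.05 unstimulated and -0.07 at LPS 3 h, against 0.03 in each state over all genes. Over the genes with a mean of at least 1000 the medians were 0.05 unstimulated and 0.11 at LPS 3 h. When the null allowed a change of up to 0.25 in size, 0 members passed unstimulated (5 had an unadjusted p under 0.05 in the authors' DESeq2 test) and 2, Pfkp and Pfkfb3, at LPS 3 h. With an empirical null, which widens the null to the bulk of all genes, 0 passed unstimulated and only Pfkp at LPS 3 h. Among the 12994 genes with a mean of at least 10, 1499 unstimulated and 2427 at LPS 3 h passed the null of 0.25. The empirical null passed 584 and 494 of them, so few genes of any kind passed these settings.

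**Figure D1:**
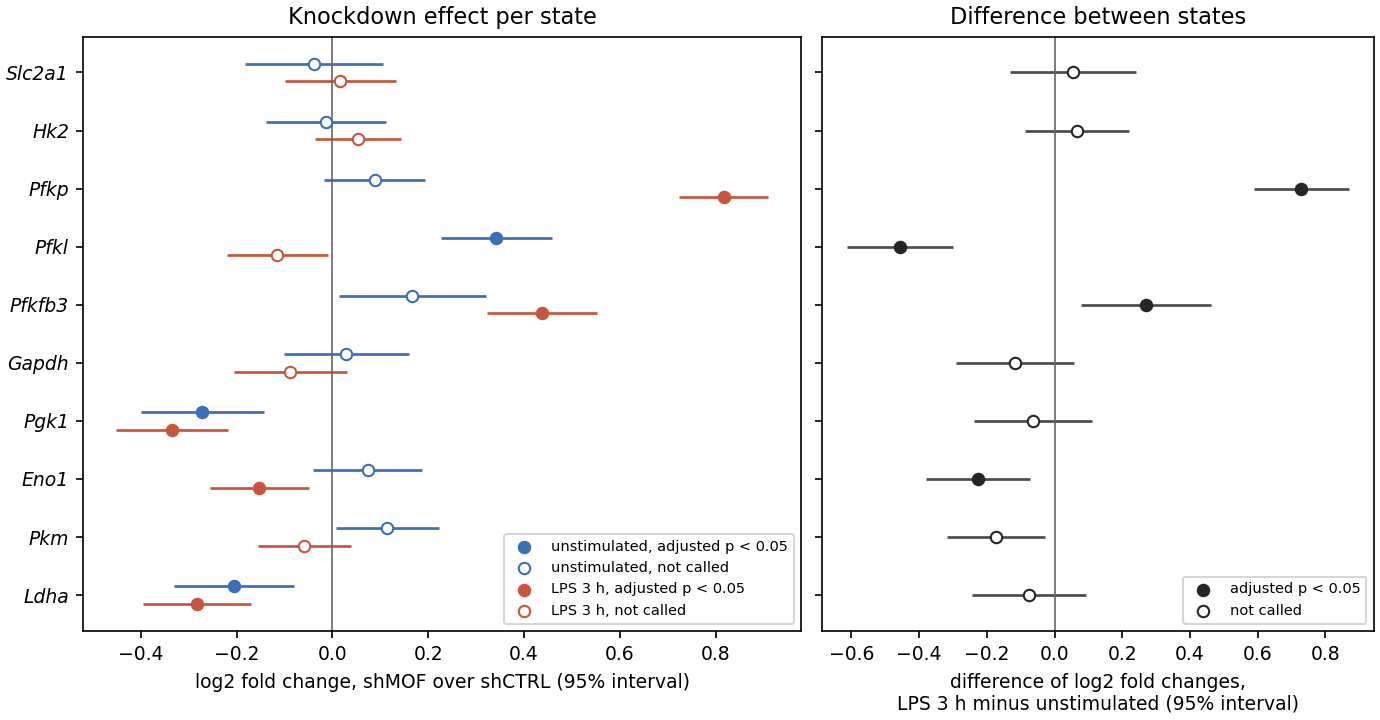
Log2 fold change of shMOF over shCTRL for each of the 10 genes, in pathway order (left, blue unstimulated, red LPS 3 h), and the difference of these fold changes between the states (right). Points are estimates from the authors' deposited tables, bars are 95% intervals from the SE, and filled points have an adjusted p under 0.05. Pfkp stands apart at LPS 3 h with 0.82, and Pfkl moves from 0.34 to -0.11.

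Promoters are shown for Pfkp and Pfkl, subunit genes that moved apart between states. Those of Pgk1 and Ldha, which fell in each state and are textbook HIF-1 targets, are shown as well. The choice leaves out Pfkfb3, which rose at LPS 3 h. The windows run from 250 bases before to 50 bases after a RefSeq transcription start on GRCm38.p6. They are written 5′ to 3′ on the gene's strand. Capitals mark the hypoxia response core, ACGTG or GCGTG, and the E-box CACGTG bound by MYC and its relatives, in either orientation, so CACGT and CACGC are the same cores read on the other strand. For Ldha the upstream of 2 starts is shown.
Pfkp (chr13:6648722-6649021, minus strand): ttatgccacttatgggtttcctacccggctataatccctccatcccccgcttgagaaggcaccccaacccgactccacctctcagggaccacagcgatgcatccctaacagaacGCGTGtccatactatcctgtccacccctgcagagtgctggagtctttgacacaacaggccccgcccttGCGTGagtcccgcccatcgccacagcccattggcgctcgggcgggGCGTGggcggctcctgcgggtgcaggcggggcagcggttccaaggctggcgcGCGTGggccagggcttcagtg
Pfkl (chr10:78009758-78010057, minus strand): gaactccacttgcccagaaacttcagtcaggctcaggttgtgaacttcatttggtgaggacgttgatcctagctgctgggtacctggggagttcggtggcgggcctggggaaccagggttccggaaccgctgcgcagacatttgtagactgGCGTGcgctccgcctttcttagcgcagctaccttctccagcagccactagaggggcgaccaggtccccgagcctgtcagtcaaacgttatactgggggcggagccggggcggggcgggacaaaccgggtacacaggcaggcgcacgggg
Pgk1 (chrX:106186850-106187149, plus strand): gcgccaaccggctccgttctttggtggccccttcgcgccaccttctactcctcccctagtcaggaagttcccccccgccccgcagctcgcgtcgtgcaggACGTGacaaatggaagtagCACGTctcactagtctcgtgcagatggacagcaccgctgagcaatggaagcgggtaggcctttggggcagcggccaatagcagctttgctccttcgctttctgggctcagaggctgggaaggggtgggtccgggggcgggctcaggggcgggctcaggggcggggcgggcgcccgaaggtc
Ldha (chr7:46845554-46845853, plus strand): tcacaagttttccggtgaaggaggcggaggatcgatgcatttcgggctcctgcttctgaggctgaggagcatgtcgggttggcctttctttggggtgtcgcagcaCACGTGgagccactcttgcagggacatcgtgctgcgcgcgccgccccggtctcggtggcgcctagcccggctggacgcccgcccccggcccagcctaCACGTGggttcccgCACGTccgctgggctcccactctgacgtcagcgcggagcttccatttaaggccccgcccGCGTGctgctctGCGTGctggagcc
The Pfkp window held 4 core matches, the Pfkl window 1, the Pgk1 window 2 and this Ldha window 7, in which each E-box counts as a core on both strands. The window of the other Ldha start held 2, and those of Pfkfb3 held 1 and 4. All 10 genes had at least 1 window, 15 in all, and 14 of these 15 held a core. Among all 32851 windows of this length 43.8% did. The windows of the 10 genes had a median GC content of 65.0%, against 52.7% over all windows, and the 2 Eno1 windows that start at 150236947 and 150236974 overlap. An E-box was present in 2 of the 15 windows, 1 each of Pfkfb3 and Ldha, and in 7.15% of all windows. The core thus occurs in windows of genes that rose, fell or were not called, and a match of letters shows no binding.

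Levels are compared per kilobase of exon, on the deposited mean normalized count. It is the same number in both tables, so it gives no level for a single LPS state or group. Pkm, which encodes the M isoforms of pyruvate kinase, had 20559 mean normalized counts per kb, followed by Gapdh with 16960, Ldha with 7867, Eno1 with 6272 and Pgk1 with 3777. The genes of uptake and of the early steps were lower, at 1229 for Pfkfb3, 796 for Pfkp, 497 for Slc2a1, 494 for Hk2 and 466 for Pfkl. Among these 10 genes, those of the later steps thus had the higher levels per kb, which does not extend to the whole pathway: Aldoa, an earlier-step gene outside the 10, had 18973. Several members were not the most abundant gene of their family. Slc2a1 made up 14.8% of the counts per kb of the 5 measured glucose and hexose transporter genes, where Slc2a6 made up 73.9%. Among the 3 hexokinase genes Hk2 made up 10.4% and Hk3 71.9%. Among phosphofructokinase genes Pfkp made up 58.0%, Pfkl 33.9% and Pfkm 8.07%. Eno1 at 95.6% and Ldha at 99.7% were nearly alone in theirs.

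**Figure D2:**
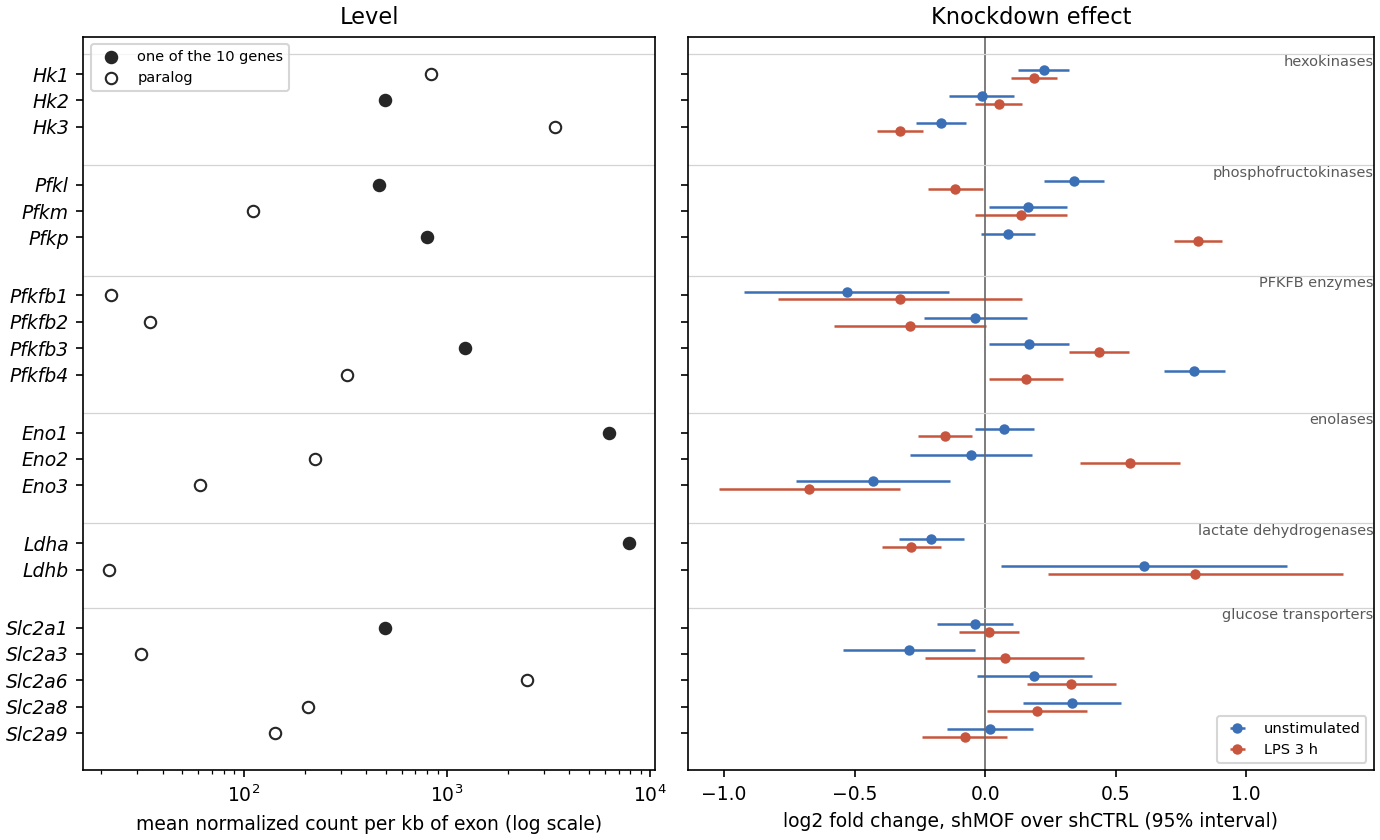
Families of the 10 genes: mean normalized count per kb of exon on a log axis (left, filled for the 10 genes, open for paralogs) and the log2 fold change of shMOF over shCTRL in each state with its 95% interval (right). The paralogs of a step often differ in direction, as for Hk1 (0.22 unstimulated) and Hk3 (-0.17).

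Slc2a1, which encodes the widespread glucose transporter GLUT1, differed little between shMOF and shCTRL cells. Its log2 fold change was -0.04 (SE 0.07, 95% interval -0.18 to 0.11, adjusted p = 0.731) unstimulated by the authors' deposited table. At LPS 3 h it was 0.02 (SE 0.06, interval -0.10 to 0.13, adjusted p = 0.850) by the authors' deposited table, so a change beyond these bounds lies outside the interval. Of the other transporters, Slc2a6, a lysosomal hexose transporter, rose by 0.33 (SE 0.09, adjusted p = 5.05e-04) at LPS 3 h by the authors' deposited table. Slc2a8 rose by 0.33 (SE 0.10, adjusted p = 0.00224) in unstimulated cells by the authors' deposited table. Slc2a3, which encodes GLUT3, and Slc2a9, a urate transporter, were not called in either state.

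Hexokinase traps glucose as its 6-phosphate. Hk2, the inducible hexokinase that binds mitochondria, was close to the control level, with -0.01 (SE 0.06, interval -0.14 to 0.11, adjusted p = 0.903) unstimulated and 0.05 (SE 0.05, interval -0.04 to 0.14, adjusted p = 0.356) at LPS 3 h by the authors' deposited table. Its paralogs moved in opposite directions. Hk1 rose by 0.22 (SE 0.05, adjusted p = 3.58e-05) and by 0.19 (SE 0.04, adjusted p = 9.98e-05) in the same order by the authors' deposited table. Hk3, the most abundant hexokinase transcript here, had -0.17 (SE 0.05, adjusted p = 0.00241) and -0.33 (SE 0.04, adjusted p = 3.43e-12) by the authors' deposited table. Adpgk, an ADP-dependent glucokinase, fell in each state, with -0.22 (SE 0.07) and -0.26 (SE 0.07) by the authors' deposited table.

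The phosphofructokinase genes had the widest contrast between states among the 10 genes. Pfkp, the platelet-type subunit, spans chr13:6579768-6648777 on the minus strand. It had 0.09 (SE 0.05, adjusted p = 0.191) unstimulated and rose by 0.82 (SE 0.05, adjusted p = 1.46e-64) after LPS by the authors' deposited table, 1.76-fold over shCTRL. By fold change at LPS 3 h it ranked 485 from the top among 12994 genes with a mean of at least 10. Pfkl, the liver-type subunit (chr10:77986947-78010083, minus strand), went the other way. It rose by 0.34 (SE 0.06, adjusted p = 5.77e-08), 1.27-fold, in unstimulated cells and had -0.11 (SE 0.05, adjusted p = 0.0657) after LPS by the authors' deposited table. With fold changes centred on the median of all genes, the LPS value of Pfkl was -0.14 and passed (adjusted p = 0.0164). Pfkm, the muscle-type subunit and the least abundant, had 0.17 (SE 0.08, adjusted p = 0.0716) and 0.14 (SE 0.09, adjusted p = 0.203) by the authors' deposited table. The 2 subunits with a call thus had it in different states.

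A limit on the Pfkp value is its neighbour. The 3′ end of Pfkp overlaps Pitrm1, a mitochondrial protease gene on the opposite strand, over chr13:6579768-6580515. Pitrm1 had 0.01 (SE 0.05) unstimulated and rose by 0.30 (SE 0.04) at LPS 3 h by the authors' deposited table, the same direction as Pfkp and a smaller change. The kit keeps strand, and whether the counting used it is not given in the sources used here, so the part of these reads in the Pfkp value was not tested.

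PFKFB3, which makes the activator of phosphofructokinase, is encoded by Pfkfb3 at chr2:11471433-11554077, minus strand. It had 0.17 (SE 0.08, interval 0.01 to 0.32, adjusted p = 0.0779) unstimulated and rose by 0.44 (SE 0.06, adjusted p = 9.11e-13) at LPS 3 h by the authors' deposited table, 1.35-fold. Pfkfb4, a bifunctional relative at 20.0% of the family's counts per kb, had the reverse order of states. It rose by 0.80 (SE 0.06, adjusted p = 1.82e-39) unstimulated and was at 0.16 (SE 0.07, adjusted p = 0.0579) at LPS 3 h by the authors' deposited table. Tigar, whose product removes the same activator, fell in unstimulated cells with -0.56 (SE 0.09, adjusted p = 1.42e-09) and had -0.14 (SE 0.08, adjusted p = 0.131) after LPS by the authors' deposited table. The remaining pair, Pfkfb1 and Pfkfb2, had fold changes between -0.53 and -0.04 in the authors' deposited tables, and of these 4 values that of Pfkfb1 in unstimulated cells passed (adjusted p = 0.0237).

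Below the split into triose phosphates, Pgk1 fell in each state and Eno1 after LPS, while Gapdh and Pkm were not called. Gapdh, often used as a reference transcript, had 0.03 (SE 0.07, interval -0.10 to 0.16, adjusted p = 0.772) unstimulated and -0.09 (SE 0.06, interval -0.21 to 0.03, adjusted p = 0.230) at LPS 3 h by the authors' deposited table. Pgk1 encodes phosphoglycerate kinase, which makes the first ATP of the pathway, and spans chrX:106187100-106203699, plus strand. Its level fell by 17.1% unstimulated and fell by 20.7% at LPS 3 h, with log2 fold changes of -0.27 (SE 0.07, adjusted p = 1.93e-04) and -0.33 (SE 0.06, adjusted p = 1.27e-07) by the authors' deposited table. Eno1, the main enolase gene (chr4:150236721-150248879, plus strand), had 0.07 (SE 0.06, adjusted p = 0.337) unstimulated. At LPS 3 h it fell by 10.04%, with -0.15 (SE 0.05, adjusted p = 0.00942) by the authors' deposited table. Pkm had 0.11 (SE 0.05, adjusted p = 0.0855) and -0.06 (SE 0.05, adjusted p = 0.347) by the authors' deposited table.

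Other genes near these steps, named for their small p-values, included several that fell slightly after LPS. By the authors' deposited table, Pgam1, phosphoglycerate mutase, had -0.09 (SE 0.06) unstimulated and -0.29 (SE 0.05, adjusted p = 1.96e-07) at LPS 3 h. Aldoa, the main aldolase gene, which acts just before the triose phosphates, had -0.03 (SE 0.05) and -0.16 (SE 0.05, adjusted p = 0.00158), and Tpi1, triose phosphate isomerase, -0.04 (SE 0.07) and -0.14 (SE 0.06, adjusted p = 0.0415) by the authors' deposited table. Of 10 measured genes from triose phosphate to pyruvate, 2 fell and 0 rose unstimulated, and 5 fell and 1 rose at LPS 3 h, with medians of -0.05 and -0.15. Over all genes 17.8% fell unstimulated and 20.0% at LPS 3 h. At LPS 3 h 4 of the 10 were not called, Gapdh and Pkm among them. The riser was Eno2, the neuronal-type enolase, with 0.56 (SE 0.10, adjusted p = 6.58e-08) at LPS 3 h and -0.05 (SE 0.12) unstimulated by the authors' deposited table. Eno3, the muscle enolase, fell in each state, with -0.43 (SE 0.15) and -0.67 (SE 0.18) by the authors' deposited table.

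Ldha, whose enzyme turns pyruvate into lactate and restores NAD+, fell in each state, as did Pgk1. It spans chr7:46841475-46855627 on the plus strand. Its level fell by 13.3% unstimulated and fell by 17.8% at LPS 3 h, with log2 fold changes of -0.21 (SE 0.06, adjusted p = 0.00455) and -0.28 (SE 0.06, adjusted p = 4.73e-06) by the authors' deposited table. Ldhb, the heart-type gene at 28.5 mean normalized counts, had 0.61 (SE 0.28, adjusted p = 0.0710) and 0.81 (SE 0.29, adjusted p = 0.0128) by the authors' deposited table. The lactate exporter gene Slc16a3 (MCT4) had -0.15 (SE 0.07, adjusted p = 0.0970) and fell at LPS 3 h with -0.42 (SE 0.07, adjusted p = 3.12e-09) by the authors' deposited table. The related transporter gene Slc16a1 (MCT1) fell unstimulated with -0.66 (SE 0.12, adjusted p = 4.73e-07) and rose by 0.28 (SE 0.11, adjusted p = 0.0168) after LPS by the authors' deposited table. Bsg and Emb, which encode the membrane partners of these transporters, rose in each state, Emb by 0.39 (SE 0.08) and 0.54 (SE 0.07) by the authors' deposited table.

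In the order of the 10 fold changes, neighbours were mostly not separable. Unstimulated, the 95% intervals of every pair of neighbours overlapped, from Pfkl at the top to Pgk1 at the bottom. At LPS 3 h Pfkp stood above Pfkfb3, and Pfkfb3 above Hk2, with intervals that did not overlap, while those of the neighbours from Hk2 down to Pgk1 did.

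**Figure D3:**
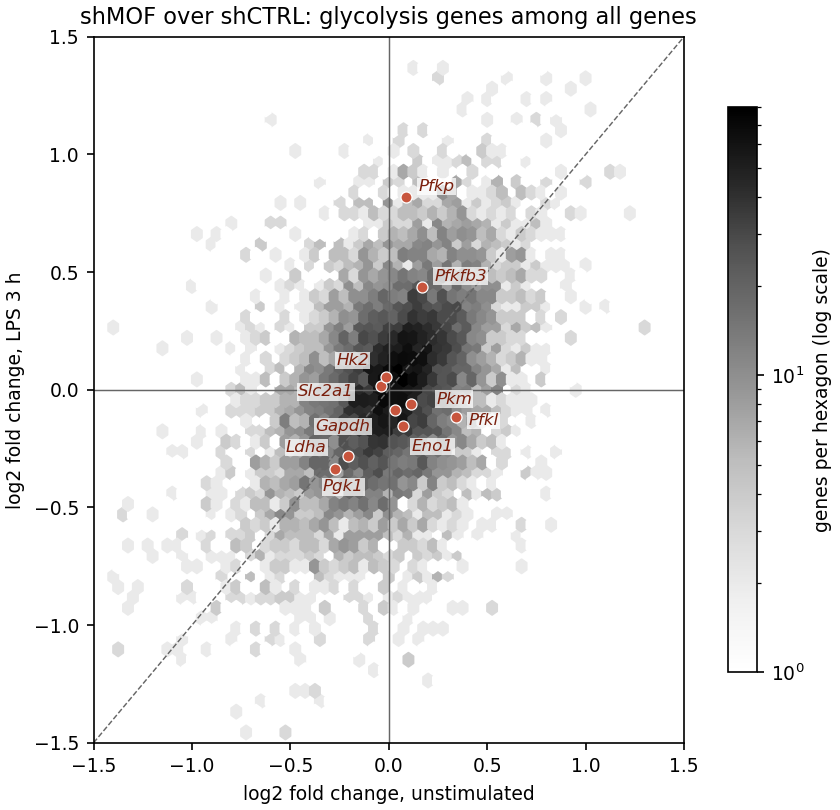
Log2 fold change of shMOF over shCTRL unstimulated (x) and at LPS 3 h (y) for genes whose mean normalized count reached 10, as grey hexagons shaded by the number of genes (log scale, a hexagon with 1 gene being white), with the 10 genes in red. The dashed line marks equal effects, and 340 genes lie outside the axes at 1.5. Pfkp and Pfkfb3 lie above the line, Pfkl below it, and Pgk1 and Ldha close to it.

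Whether the knockdown effect differed between the states was tested on the difference of the log2 fold changes, LPS 3 h minus unstimulated. It passed for 4 of the 10 genes, 2 in each direction, against 30.6% of all 12994 genes tested (18.2% higher and 12.4% lower) and 42.3% of those with a mean of at least 1000. Pfkp had a difference of 0.73 (SE 0.07, adjusted p = 3.75e-22) and Pfkfb3 of 0.27 (SE 0.10, adjusted p = 0.0224). The difference was -0.46 (SE 0.08, adjusted p = 1.83e-07) for Pfkl and -0.23 (SE 0.08, adjusted p = 0.0161) for Eno1. Pkm missed the threshold at -0.17 (SE 0.07, adjusted p = 0.0609) and passed after centring (adjusted p = 0.0482) or with errors correlated at 0.3 (adjusted p = 0.0166). Pgk1 and Ldha, which fell in each state, had differences of -0.06 (SE 0.09, interval -0.24 to 0.11) and -0.08 (SE 0.09, interval -0.25 to 0.09). For Slc2a1, Hk2 and Gapdh the difference lay between -0.12 and 0.07, and none of these 3 passed. The calls of Pfkfb3 and Eno1 were lost at a threshold of 0.01, and that of Pfkfb3 also with errors correlated at -0.3 (adjusted p = 0.0586). An empirical null left only that of Pfkp (adjusted p = 0.00122), and 335 calls over all genes.

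The wider pathway, 125 of 145 listed genes in 14 lists, was mixed in direction. Of these 30 rose and 26 fell unstimulated, and 36 rose and 31 fell at LPS 3 h, with medians of -0.00 and -0.01. The difference between states passed for 20 upward and 16 downward of the 123 with a mean of at least 10. Pooled, 44.8% of these genes were called unstimulated, 53.6% at LPS 3 h and 29.3% for the difference, against 39.1%, 48.0% and 30.6% of all genes. Single lists ranged widely around these shares. At LPS 3 h, all 7 lactate dehydrogenase and lactate transport genes were called, 86.7% of the glycogen genes and 25.0% of the pentose phosphate genes. The lists are short, and nothing particular to any of them was tested.

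**Figure D4:**
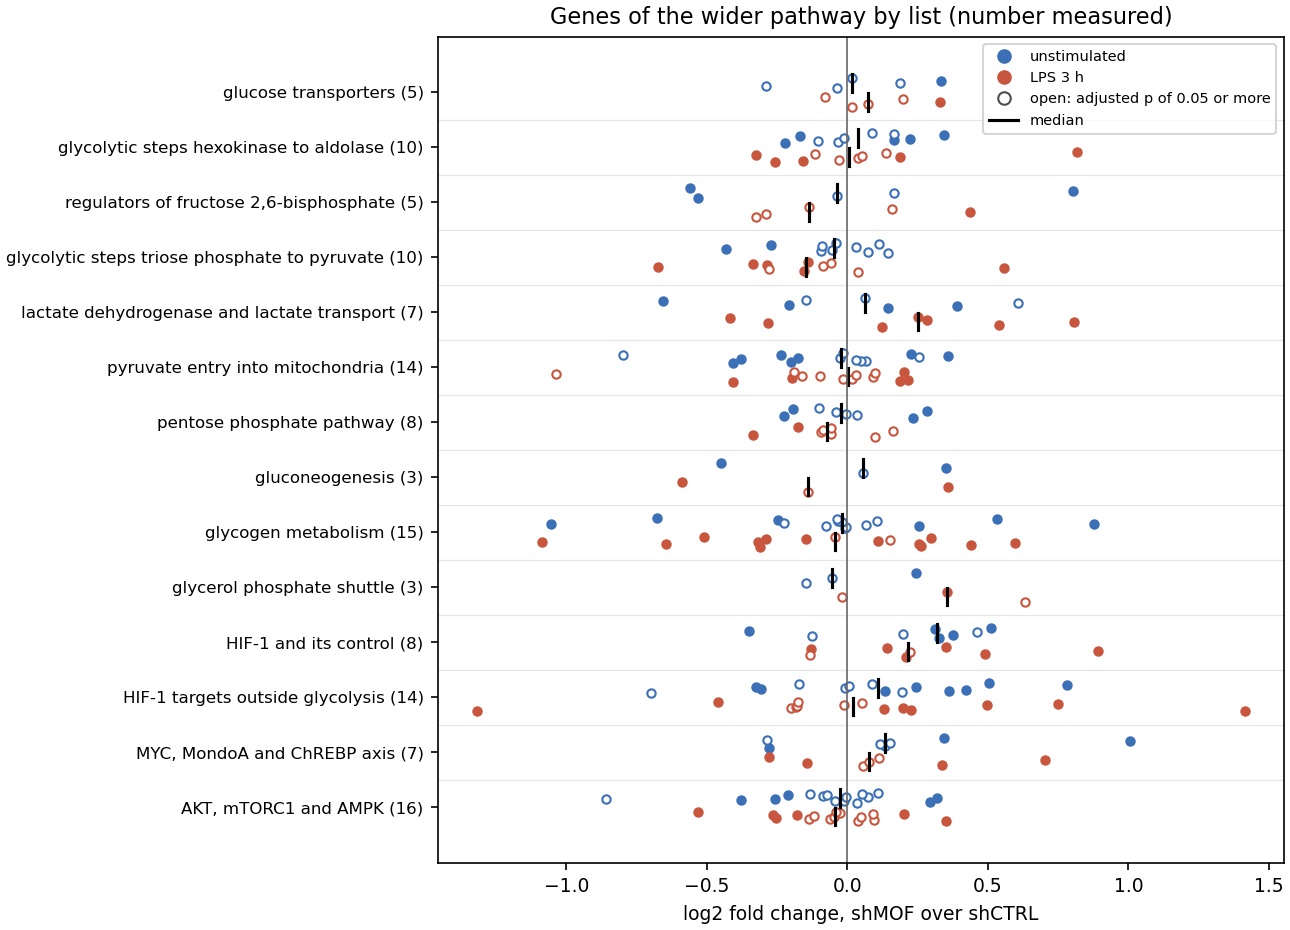
Log2 fold change of shMOF over shCTRL for each measured gene of the wider pathway (x), by list (y, number measured in parentheses), blue for unstimulated and red for LPS 3 h. Filled points have an adjusted p under 0.05 and black bars are medians. Most lists spread to both sides of 0, and that of HIF-1 and its control has medians of 0.32 and 0.22.

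The list for pyruvate entry into mitochondria holds genes of the pyruvate carrier and of pyruvate dehydrogenase and its control. Unstimulated, 5 of its 14 genes fell and 2 rose, while 2 fell and 3 rose at LPS 3 h. The list had 7 of 14 genes called unstimulated and 35.7% at LPS 3 h, against 39.1% and 48.0% of all genes. The carrier genes were not among those that fell in either state. Dlat and Pdhb, subunit genes of pyruvate dehydrogenase, fell in each state, Dlat by -0.41 (SE 0.05) and -0.41 (SE 0.05) and Pdhb by -0.38 (SE 0.06) and -0.20 (SE 0.05) by the authors' deposited table. Dld, the shared dehydrogenase subunit, had -0.20 (SE 0.04, adjusted p = 1.34e-06) unstimulated and 0.19 (SE 0.03, adjusted p = 1.68e-07) after LPS by the authors' deposited table, with a difference of 0.39 (SE 0.05, adjusted p = 1.44e-12). In the pentose phosphate pathway, which branches off at the hexokinase product, 2 of 8 genes rose and 2 fell unstimulated. At LPS 3 h 0 rose and 2 fell. The pathway thus had 4 of 8 genes called unstimulated and 25.0% at LPS 3 h, against 39.1% and 48.0% of all genes. G6pdx, its entry enzyme, rose by 0.23 (SE 0.06, adjusted p = 4.78e-04) unstimulated, and H6pd fell in each state, with -0.22 (SE 0.06) and -0.33 (SE 0.05) by the authors' deposited table.

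Of 15 genes of glycogen metabolism 3 rose and 3 fell unstimulated, and 6 rose and 7 fell at LPS 3 h. That is 40.0% and 86.7% called, against 39.1% and 48.0% of all genes. Pgm2l1, which makes glucose bisphosphate, fell with -1.05 (SE 0.07) and -1.09 (SE 0.09), and Ugp2, which makes UDP-glucose, with -0.68 (SE 0.04) and -0.51 (SE 0.04) by the authors' deposited table. Pgm2 rose by 0.88 (SE 0.06) and 0.60 (SE 0.06), and Gyg, which primes glycogen, by 0.26 (SE 0.05) and 0.44 (SE 0.05) by the authors' deposited table. Of 3 measured gluconeogenesis genes, Pck2 rose and Pcx fell in each state. Of the glycerol phosphate shuttle, Gpd2 rose in each state, by 0.24 (SE 0.07) and 0.36 (SE 0.05) by the authors' deposited table.

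Of 8 genes of HIF-1 and its control 4 rose and 1 fell unstimulated, and 5 rose and 1 fell at LPS 3 h. The shares called were 62.5% and 75.0%, against 39.1% and 48.0% of all genes. Hif1a fell in each state, with -0.35 (SE 0.05, adjusted p = 1.19e-11) and -0.13 (SE 0.04, adjusted p = 0.00395) by the authors' deposited table. Vhl, part of the ligase that degrades the HIF-1 alpha protein, rose by 0.51 (SE 0.07) and 0.35 (SE 0.06), and the prolyl hydroxylase gene Egln2 by 0.38 (SE 0.07) and 0.49 (SE 0.06) by the authors' deposited table. The partner subunit gene Arnt rose by 0.33 (SE 0.04) and 0.21 (SE 0.04) by the authors' deposited table. HIF-1 targets outside glycolysis did not share a direction, with 6 of 14 higher and 2 lower in each state, or 57.1% called. Ndrg1 rose by 0.78 (SE 0.11) and 0.75 (SE 0.10) by the authors' deposited table. Ero1l, an endoplasmic reticulum oxidase gene, was lower in shMOF than in shCTRL cells unstimulated, with -0.31 (SE 0.06), and higher at LPS 3 h, with 0.20 (SE 0.05), by the authors' deposited table. Adm, adrenomedullin, had -0.70 (SE 0.65, adjusted p = 0.429) unstimulated and rose by 1.42 (SE 0.17, adjusted p = 5.52e-16) at LPS 3 h by the authors' deposited table.

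In the MYC, MondoA and ChREBP axis 2 of 7 genes rose and 1 fell unstimulated, and 2 rose and 2 fell at LPS 3 h. The shares called were 42.9% and 57.1%, against 39.1% and 48.0% of all genes. Txnip, a glucose-induced gene whose product lowers glucose uptake, rose by 0.35 (SE 0.05) unstimulated and fell with -0.28 (SE 0.05) after LPS by the authors' deposited table, a difference of -0.62 (SE 0.07, adjusted p = 2.53e-15). Mxd1, an antagonist of MYC, also rose in each state, by 0.70 (SE 0.15) at LPS 3 h by the authors' deposited table. Of 16 AKT, mTORC1 and AMPK genes 2 rose and 3 fell unstimulated, and 2 rose and 4 fell at LPS 3 h. At 31.2% and 37.5% called, both shares were below those of all genes. Akt2, the isoform tied to insulin-driven glucose uptake, rose by 0.30 (SE 0.06) and 0.35 (SE 0.05) by the authors' deposited table. Tsc1 had -0.13 (SE 0.08) unstimulated and fell with -0.53 (SE 0.08, adjusted p = 6.60e-10) at LPS 3 h by the authors' deposited table. Unstimulated, Pdpk1 fell with -0.38 (SE 0.06, adjusted p = 4.59e-08) and Prkab1 rose by 0.32 (SE 0.05, adjusted p = 6.33e-09) by the authors' deposited table. Neither of these was called at LPS 3 h.

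Other features of the libraries moved with the knockdown, and their part in the glycolytic values was not tested. All 15 proliferation markers fell unstimulated, with a median of -2.15, and 13 fell at LPS 3 h, with a median of -1.40, where Mki67 rose by 0.83 (SE 0.06) by the authors' deposited table. Macrophage markers rose in 10 of 10 cases unstimulated and in 8 of 10 at LPS 3 h, and 7 of 9 LPS response genes rose at LPS 3 h, among them Tnf by 1.10 (SE 0.06) by the authors' deposited table. Over all genes 21.3% rose and 17.8% fell unstimulated, and 28.1% rose and 20.0% fell at LPS 3 h. The macrophage markers summed to 540352 mean normalized counts. Neutrophil markers were found for 4 of 10 genes, together 3464 mean normalized counts, most of them from Csf3r, which rose by 0.79 (SE 0.14, adjusted p = 1.61e-07) unstimulated and had 0.11 (SE 0.13) after LPS by the authors' deposited table. Stromal and endothelial markers were found for 6 of 6, of which 2 rose, 0 fell and 4 were not called in each state. That is 33.3% called, against 39.1% of all genes unstimulated and 48.0% at LPS 3 h. Col1a2 was the highest of the 6 at 667 mean normalized counts and was 1 of the 2 that rose. Of the T, B and NK cell list 0 of 7 genes were matched by name, of the erythroid list 0 of 6 and of the dendritic cell list 1 of 6. Of 5 progenitor markers 3 fell and 1 rose unstimulated, with a median of -0.70, and 2 fell and 1 rose at LPS 3 h, with a median of -0.83. Kit, Cd34 and Ly6a were the 3 that fell unstimulated, Ly6a with -0.70 (SE 0.17) and -1.21 (SE 0.16) by the authors' deposited table.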

How the data were processed

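RNA was sequenced from 12 libraries in 4 groups of 3, prepared per the labels' protocols with a stranded mRNA kit and read as pairs of 100 bp. The submitters' processing notes name DESeq2 and mm10. No aligner, counter or annotation is given in the sources used here. Per the file headers, the authors deposited for each LPS state a mean normalized count (a signal), a log2 fold change with its SE, a Wald statistic (a score), a p-value and an adjusted p-value. In the authors' tables the statistic was the fold change divided by its SE, within 1.53e-13. Depth per library is unknown. The authors' direction labels were not used.

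The difference between states was scaled by the SE of both estimates combined in quadrature, taken as uncorrelated, and its normal p (two-sided) was adjusted by Benjamini-Hochberg over 12994 genes with a mean of at least 10. The difference test was run on simulated data with independent normal errors of the deposited SE. It recovered 59% of true differences of 0.5 and 79% of those of 1, with 8 false calls among 146. Since the errors were drawn as the test assumes, this cannot show how it fares with correlated errors or a wrong SE. Intervals are 95% normal intervals. Gene positions and exon lengths (protein-coding transcripts of the basic set) come from GENCODE M21 (GRCm38, the same build as mm10), joined on gene ID. Promoters are from RefSeq on GRCm38.p6. Similar transcripts were sought with blastn 2.17.0 (identity of at least 95% over at least 300 bases). Tables were handled with pandas 2.3.3 and scipy 1.17.1 in Python 3.11.15.

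The members and lists were chosen with earlier results of these data known. Named genes are the 10 members, their measured paralogs, and up to 4 genes per pathway list with the smallest p-value in either state, with Kat8, Mki67 and Tnf as checks. Pitrm1, Gm6560, Csf3r, Col1a2, Kit, Cd34 and Ly6a were named after their values were seen, and so was the minimum mean of 1000.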

Additional observations from a re-analysis of the deposited data

Results flagged for a closer look

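For 4 of the 10 genes the knockdown effect differed between LPS 3 h and unstimulated cells by a test of the difference itself. The differences, LPS 3 h minus unstimulated on the log2 scale, were 0.73 for Pfkp, -0.46 for Pfkl, 0.27 for Pfkfb3 and -0.23 for Eno1. Over all genes 30.6% had such a difference. Pitrm1, which overlaps the end of Pfkp on the opposite strand, rose by 0.30 at LPS 3 h by the authors' deposited table.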

How the results depend on the processing

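No paired analysis was possible because the tables hold fold changes and no values per library, and for the same reason leaving out each replicate was not run. Over 220 recomputed values of single members, 185 kept their direction and call, 29 lost the call, 3 gained it and 3 changed sign. The 185 include values that were not called at the start and so had no call to lose. Several settings, such as the threshold of 0.01 and the minimum change of 0.5, could only remove calls. The 185 are thus no measure of how stable the calls were. Sign changes were in values near 0: Gapdh unstimulated at -0.00094 and Slc2a1 at LPS 3 h at -0.0134 after centring, and Slc2a1 at LPS 3 h at -0.00029 with an empirical null. A minimum log2 change of 0.5 left 0, 1 and 1 members called (unstimulated, LPS 3 h, difference) and 12, 16 and 11 genes of the wider pathway. Over all genes it left 1671, 2436 and 1602. A null of at most 0.25 left 0 and 2 members, 12 and 19 pathway genes, and 1499 and 2427 of all genes in the 2 states. An empirical null left 0, 1 and 1 members and 4, 3 and 3 pathway genes. Unadjusted p-values under 0.05 were found for 5, 6 and 5 members in the authors' DESeq2 tests and the difference. At a threshold of 0.01 the difference was called for 2 members, 22 pathway genes and 2823 of all genes. Centring, the other minimum means and correlated errors kept each count within 1.5 times. Over all genes the empirical null made 584 calls unstimulated, 128 of them higher, against 3037 of 5575, and 494 at LPS 3 h, 325 of them higher, against 3924 of 6718. The SE of the members, 0.05 to 0.08 unstimulated, limits what could be detected.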

Other observations

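Several of the 10 genes have near-identical copies, defined as other genes with at least 95% identity over at least 300 bases of transcript. Gapdh had 77, of which 74 are pseudogenes, and 15 of the 77 were in the tables, summing to 0.478% of the Gapdh mean normalized count. Eno1 had 3 in the tables, summing to 0.346%, and Ldha 1, at 0.0969%. The Pkm pseudogene Gm6560 was the most abundant pseudogene copy, with 275.3 mean normalized counts or 0.515% of Pkm. Gm6560 had 0.25 (SE 0.14, adjusted p = 0.152) unstimulated and -0.27 (SE 0.14, adjusted p = 0.09996) at LPS 3 h by the authors' deposited table, values whose signs are those of Pkm. Pgk1 had 4 copies, all 4 of them pseudogenes, and 0 of them were in the tables. The longest matches ran over 1255 and 1252 bases at 100% identity, against a Pgk1 transcript of 1825 bases. What these copies mean for the Pgk1 values was not tested. No such copy was found for Slc2a1, Hk2, Pfkl or Pfkfb3 at these limits. How the authors' counting shared reads among copies is not given in the sources used here.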
